A study of Mus with 30 samples.

Results

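Hearts of mice that received angiotensin II (Ang II) together with valsartan were compared with hearts of mice that received Ang II alone. The comparison held 10 of the 30 cardiac RNA-seq libraries in the series, which were the 5 mice labelled AngII+VAL (mice 5131, 5148, 5121, 5124 and 5194) and the 5 labelled AngII (mice 5143, 5128, 5130, 5161 and 5156). All mice were wild-type C57BL/6, described in the study's methods as males of 8 weeks. Both groups received Ang II for 28 days at 500 ng/kg/min, and the AngII+VAL mice also received valsartan at 10.4 mg/kg/d. The study's methods describe delivery of Ang II by an implanted osmotic pump and sequencing of the left part of the heart. They do not describe the valsartan arm, so its route is known here only as far as the labels give it, which is the dose. No group received valsartan without Ang II, so the comparison concerns valsartan only in mice that also received the peptide. The values of the Control mice (without Ang II) and of the mice given Ang II with ethoxysanguinarine (AngII+ETH), baicalin (AngII+BAI) or gastrodin (AngII+GAS), each at 5 mg/kg/d with 5 mice a group, are set beside the results where they bear on them.

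Ang II is the effector peptide of the renin-angiotensin system. It constricts vessels, raises blood pressure and releases aldosterone through the Ang II type 1 receptor, a G protein-coupled receptor, and prolonged infusion in mice is a standard model of hypertension with cardiac hypertrophy and fibrosis. Valsartan is an antagonist of that receptor and is used clinically against hypertension and heart failure. The comparison therefore asks which cardiac transcripts differ when valsartan is given during the infusion. Blockade of the receptor was not checked in these hearts.

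The files list transcripts by Ensembl identifier, or by a name such as MERGE.13254.5 given to a transcript model that the authors assembled, and do not pair either with a gene. The results are therefore given by transcript identifier, and cardiac marker genes were not checked here. Values were read as FPKM, fragments scaled to the length of the transcript and to the mapped fragments of the library. Of 31111 transcripts in the valsartan tables, 29529 were also in the Ang II tables, and 18196 of these reached 1 FPKM in at least 5 of the 10 hearts and were tested, 14098 Ensembl transcripts and 4098 merged models. The summed FPKM of a library was between 586384 (mouse 5124) and 652311 (mouse 5131) with valsartan and between 619497 and 645192 with Ang II alone. Between 17195 and 19656 transcripts per heart were at 1 FPKM or more. The total reads per library are unknown. Low values gave only a rough view of relative depth. Of the 618 to 771 transcripts above 0 and below 0.3 FPKM both in a library and in that of mouse 5143, 72 to 84 lay within 0.015 (log2) of the most frequent ratio between the 2 libraries, and this ratio spanned 1.13-fold over the 10 libraries.

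Few of the tested transcripts differed between the groups beyond the spread between mice. The 1582 transcripts listed with valsartan but not with Ang II could not be tested. By the listing rule given below, these could only be higher with valsartan, so the counts of higher transcripts leave them out. With limma on log2(FPKM + 1) and Benjamini-Hochberg adjustment over all 18196 transcripts, 3 transcripts were higher with valsartan (0.0165%) and 1 was lower (0.0055%) at an adjusted p under 0.05. Of these 4, 3 met the minimum of 1 FPKM in 5 hearts only through the group in which they were high, so that their groups had to differ to be tested. Without that minimum, over all 29529 transcripts, their adjusted p was between 0.021 and 0.0412. That fit does not remove the selection. Listing with the valsartan hearts needed a mean of at least 0.5 FPKM in either group, which these 3 met only through the same group. At an unadjusted p under 0.05, 491 were higher (2.7%) and 643 were lower (3.53%). The 1134 together were 6.23% of those tested, beside the 5% that this threshold passes when no transcript differs. Of the 1134, 128 were higher (0.703%) and 123 were lower (0.676%) by at least 2-fold in FPKM + 1. The 5 valsartan hearts lay wholly above the 5 Ang II hearts for 106 transcripts (0.583%) and wholly below them for 136 (0.747%). The correlation of log2 values across the tested transcripts averaged 0.83 within the Ang II group, 0.83 within the valsartan group and 0.83 between the groups, with transcripts, not hearts, as the points.

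**Figure D1:**
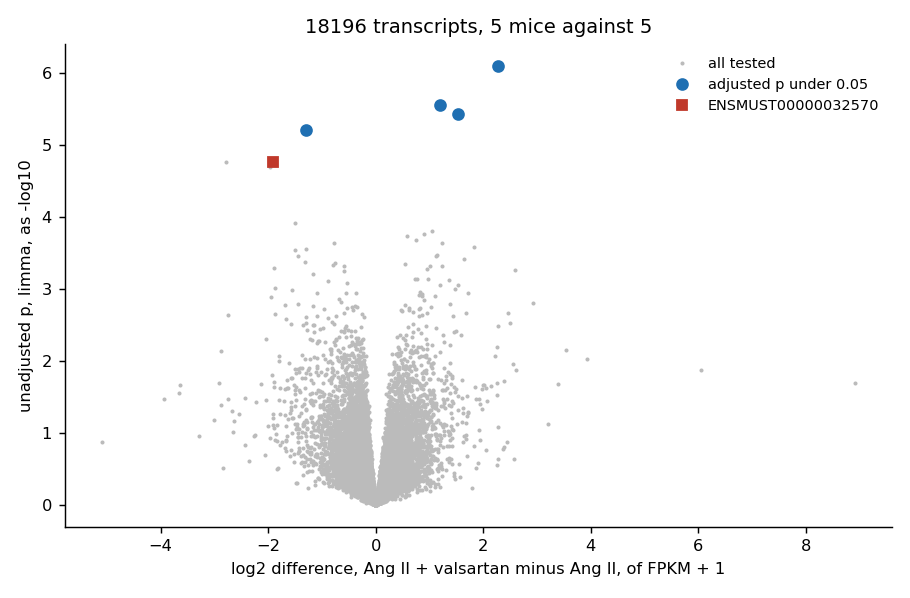
Each point is 1 of the 18196 tested transcripts, with its log2 difference (Ang II with valsartan minus Ang II, of FPKM + 1) on the x axis and its unadjusted limma p as -log10 on the y axis. The 4 blue points passed an adjusted p of 0.05, 3 to the right and 1 to the left, and the red square is ENSMUST00000032570 with an adjusted p of 0.0524.

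For most transcripts the hearts limited the size of a difference on the log2(FPKM + 1) scale rather than showing one. The added 1 shrinks differences of low transcripts, so for them a 2-fold change of FPKM itself is not excluded. The 95% interval of the valsartan difference lay wholly inside a 2-fold change of FPKM + 1, either way, for 12116 transcripts (66.6%). This share rose with abundance, from 64.9% of the 12134 transcripts at a mean under 5 FPKM to 78.8% of the 354 at 100 FPKM or more, where the median standard error (SE) of the log2 difference was 0.0995. Of the 10 most abundant transcripts, which made up 51.0% to 61.5% of the summed FPKM of a heart, 9 had log2 differences between -0.20 and 0.03, and their intervals reached at most from -0.53 to 0.21. The tenth was of another kind and is described further on.

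The transcript with the smallest p was MERGE.13254.5, a merged model whose gene is not named in the files. It was listed at 0 in Ang II mice 5143, 5128, 5130 and 5161 and at 0.00327 FPKM in mouse 5156. With valsartan it was at 4.49, 4.73, 5.13, 1.77 and 3.92 FPKM in mice 5131, 5148, 5121, 5124 and 5194. The groups did not overlap, and the difference was 2.27 on the log2(FPKM + 1) scale (SE 0.21, limma adjusted p = 0.0144). No fold is given, because the Ang II hearts were at or near 0. The adjusted p was 0.0655 without Ang II mouse 5128. In the Control hearts it was at 4.48, 2.66, 3.31, 1.65 and 6.82 FPKM, and 3 of these lay within the range of the valsartan hearts. The Ang II and Control tables list a transcript only at a mean of at least 0.5 FPKM in 1 of these groups, so a transcript near 0 with Ang II could be listed, and then tested here, only if it was present in Control hearts. The other drug groups were divided, with 6 of their 15 hearts at 0 and the highest at 5.34 FPKM.

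Under the same merged number, 1 other model was listed for both groups, and it stood the other way around. It was at 4.25, 4.28, 3.22, 4.03 and 4.98 FPKM in the Ang II hearts, in the order of mice above. With valsartan it was at 0.171, 0, 0, 3.56 and 0 FPKM, and the heart with 3.56 (mouse 5124) was the one with the lowest value of MERGE.13254.5. The sum of both models was 4.15 ± 0.632 FPKM with Ang II (SD, n = 5) and 4.76 ± 0.540 FPKM with valsartan (SD, n = 5). That sum differed by 0.16 on the log2 scale (SE 0.12, limma adjusted p = 0.868), with a 95% interval from -0.10 to 0.43. The 2 models differed in opposite directions, and the difference in their joint level did not pass the test.

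ENSMUST00000106789 was the second transcript higher with valsartan. It was at 1.44, 1.23, 1.45, 1.06 and 1.08 FPKM in the Ang II hearts and at 3.45, 5.27, 4.22, 4.20 and 3.68 FPKM in the valsartan hearts. Every valsartan heart exceeded every Ang II heart, and no value in either group was at 0. The difference was 1.19 on the log2(FPKM + 1) scale (SE 0.13, limma adjusted p = 0.0223), from a mean of 1.25 ± 0.189 FPKM to 4.16 ± 0.703 FPKM (SD, n = 5 each). The Control hearts were at 1.98, 4.36, 2.29, 3.56 and 5.61 FPKM, all above the Ang II hearts. The 15 hearts of the other drug groups ran from 0.805 to 5.55 FPKM with a median of 2.75, and 4 of them lay within the valsartan range and 3 within the Ang II range. The adjusted p rose to between 0.0576 and 0.0655 in 4 of the 10 fits that left out a single mouse (5143, 5128, 5161 or 5194).

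Another Ensembl transcript, the third higher with valsartan, was below 3 FPKM in all 10 hearts. It was at 0, 0, 0, 0.335 and 0.544 FPKM with Ang II and at 2.85, 1.98, 1.98, 2.69 and 2.23 FPKM with valsartan, a difference of 1.53 on the log2(FPKM + 1) scale (SE 0.17, limma adjusted p = 0.0223). The groups did not overlap. Control hearts were at 2.18, 2.62, 0.526, 2.66 and 2.47 FPKM, and here too the Ang II mean of 0.176 FPKM was too low for the transcript to be listed without them. Its adjusted p rose above 0.05 in 6 of the 10 fits without a single mouse (5143, 5128, 5161, 5131, 5148 or 5194), reaching 0.0875, and was 0.430 with a pseudocount of 0.1.

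MERGE.9770.8 was the transcript that was lower with valsartan at the adjusted threshold. Its level was 3.14, 2.30, 2.01, 3.26 and 2.53 FPKM in the Ang II hearts and 0.340, 0.358, 0.866, 0.468 and 0.345 FPKM in the valsartan hearts, without overlap. It fell by 1.30 on the log2(FPKM + 1) scale (SE 0.15, limma adjusted p = 0.0275), and the adjusted p rose to between 0.0543 and 0.115 in 8 of the 10 fits without a single mouse, all but those without 5130 or 5121. With a pseudocount of 0.1 it was 0.0677. Control hearts were at 10.1, 1.16, 0.525, 0.519 and 0.383 FPKM, so 1 Control heart was above all Ang II hearts and 3 lay within the valsartan range.

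Here too the other models of the merged number, 4 in these tables, did not follow it. The one that differed most was at 8.73, 0.211, 0.221, 0.254 and 0.180 FPKM in the Ang II hearts and at 12.0, 10.4, 4.0, 9.85 and 12.1 FPKM with valsartan. All 5 models summed to 33.2 ± 6.08 FPKM with Ang II and 40.8 ± 5.12 FPKM with valsartan (SD, n = 5 each). The summed level was higher with valsartan by 0.30 on the log2 scale (SE 0.14, limma adjusted p = 0.778), the reverse of the direction of MERGE.9770.8, and did not pass the test.

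**Figure D2:**
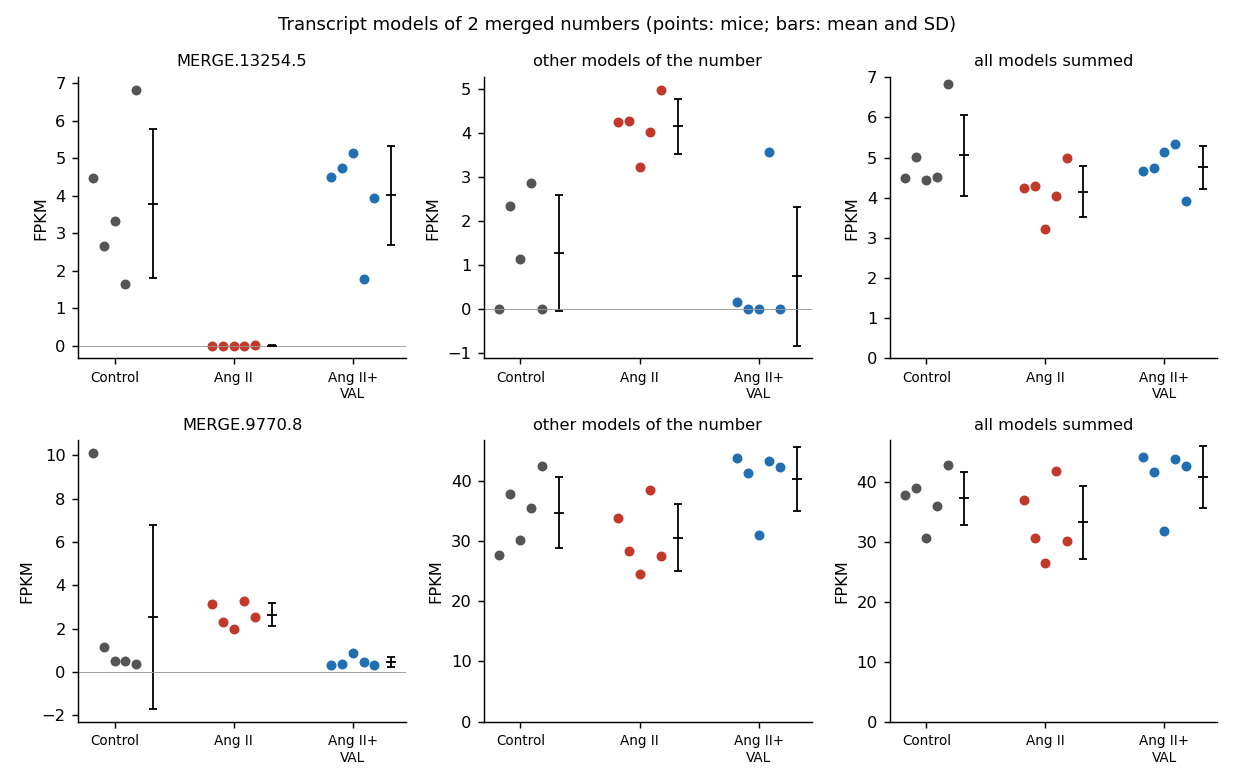
FPKM of MERGE.13254.5 and MERGE.9770.8 (left), of the remaining models of the same merged number (middle) and of all models summed (right), in the 5 Control, 5 Ang II and 5 Ang II with valsartan hearts, with points for mice and bars for the mean and SD. The left panels separate Ang II from valsartan without overlap, while the summed levels on the right overlap, at 4.15 against 4.76 FPKM and 33.2 against 40.8 FPKM.

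Across the table, 93 of 4098 merged models (2.27%) and 158 of 14098 Ensembl transcripts (1.12%) passed 2-fold and an unadjusted p under 0.05. Of the 93, 68 had other models under their number. The summed level of those other models differed in the opposite direction for 46 of the 68 (67.6%), beside 1207 of the 2243 merged models with other models that did not pass (53.8%). The sum of all models of the number also passed, in the same direction, for 6 of the 68 (8.82%), beside 11 of the 2243 (0.490%). Each sum contains the model itself, so a higher share among models that passed is partly built in, and nothing is drawn from that contrast. These sums hold the merged models listed for both groups. Unlisted models, and any Ensembl transcripts of the same gene, are not in them. With merged models summed by number before the fit, 17200 features were tested and the 2 higher Ensembl transcripts described above were the features at an adjusted p under 0.05. At an unadjusted p under 0.05, 457 of these features were higher and 638 were lower.

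A second lower transcript, the merged model with the next smallest p, was the only model of its number listed for both groups. It was at 6.47, 10.3, 12.2, 9.64 and 8.14 FPKM with Ang II and at 0, 0, 0, 1.12 and 2.33 FPKM with valsartan. All Ang II hearts exceeded all valsartan hearts. The difference was -2.78 on the log2(FPKM + 1) scale (SE 0.36), and the limma adjusted p of 0.0524 did not pass the threshold, while without valsartan mouse 5194 it was 0.0258. Of the Control hearts, 3 were listed at 0 and the others were at 6.96 and 6.61 FPKM, so the Control group held both levels.

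ENSMUST00000032570, singled out after its values were seen, was low in all valsartan hearts. The 5 Ang II hearts were at 4.42, 4.85, 5.58, 3.12 and 3.04 FPKM. The 5 valsartan hearts were at 0.0551, 1.36, 0.229, 0.0795 and 0.418 FPKM, all below the lowest Ang II heart. Their mean of 0.429 FPKM was under 0.5, so the transcript was listed with the valsartan hearts only through the Ang II hearts. The Control hearts were at 6.18, 4.92, 2.84, 4.15 and 4.25 FPKM, which is the level of the Ang II hearts. Hearts treated with ethoxysanguinarine were at 3.06 to 4.13 FPKM, those treated with gastrodin at 3.48 to 5.93 FPKM and those treated with baicalin at 0.787 to 7.42 FPKM. Of these 15 hearts, 14 lay above the whole valsartan range and 1, treated with baicalin, lay within it.

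The difference of ENSMUST00000032570 between valsartan and Ang II alone was -1.91 on the log2(FPKM + 1) scale (SE 0.25, limma adjusted p = 0.0524) in the fit of the 10 hearts, and its limma adjusted p was 0.0305 without valsartan mouse 5148. In a fit of all 30 hearts, which estimates the spread from all 6 groups over 24844 transcripts, the same difference had a limma adjusted p of 0.00471. Neither fit removes the selection by listing given above. The 3 transcripts higher with valsartan and MERGE.9770.8 did not pass in that fit, with adjusted p between 0.396 and 0.709. Their SE was 0.31 to 0.57 there and 0.13 to 0.21 in the fit of the 10 hearts.

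**Figure D3:**
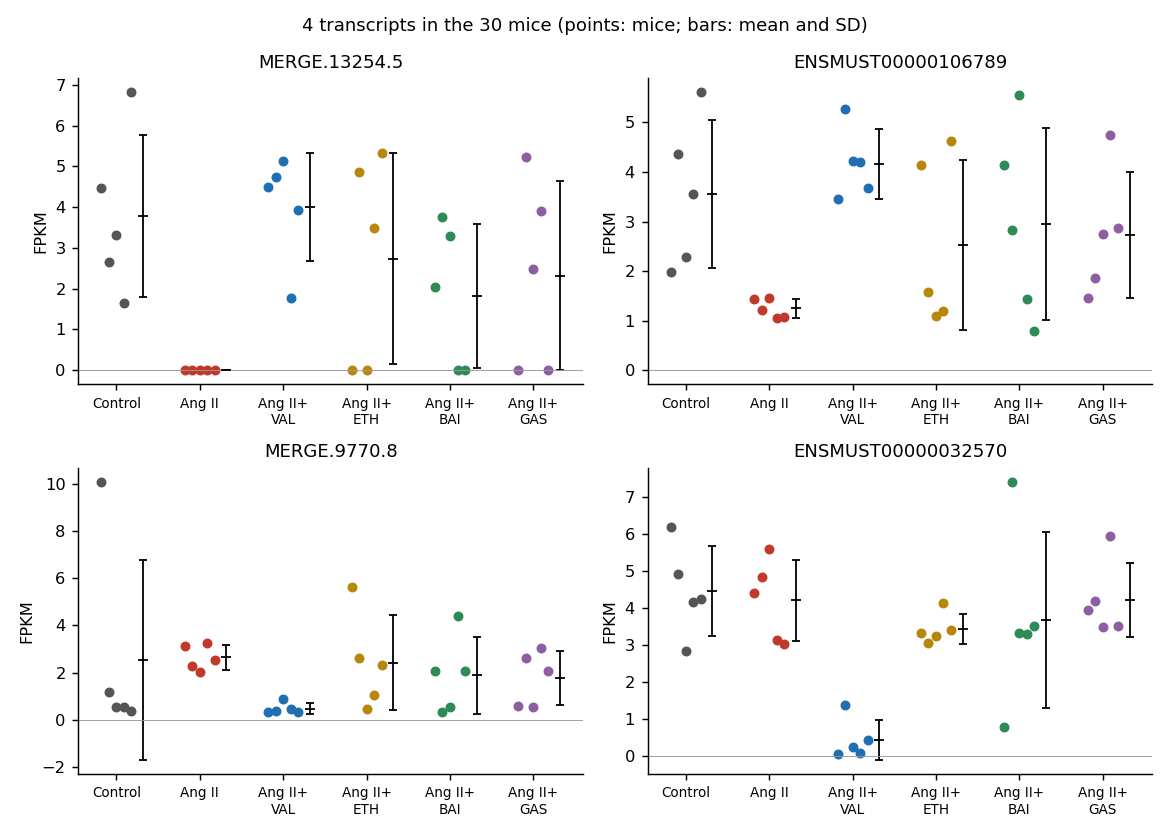
FPKM of MERGE.13254.5, ENSMUST00000106789, MERGE.9770.8 and ENSMUST00000032570 in the 5 hearts of each of the 6 groups, with points for mice and bars for the mean and SD. MERGE.13254.5 is at or near 0 in all 5 Ang II hearts and spread from 0 to 5.34 FPKM in the other drug groups, while ENSMUST00000032570 stands below 1.4 FPKM in all 5 valsartan hearts and in 1 heart of the rest.

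Valsartan was also set against the mean of the ethoxysanguinarine, baicalin and gastrodin groups, all with Ang II, in the fit of 30 hearts. The dose of valsartan was 10.4 mg/kg/d and that of the others 5 mg/kg/d, so drug and dose cannot be told apart. No transcript was higher with valsartan at an adjusted p under 0.05 and 1 of 24844 was lower (0.00403%), namely ENSMUST00000032570. At an unadjusted p under 0.05 in limma, 1178 of the 24844 passed. This is less than the 5% that the threshold passes when no transcript differs. The difference of ENSMUST00000032570 from the other drug groups was -1.74 on the log2(FPKM + 1) scale (SE 0.22, limma adjusted p = 0.00062). The difference kept its direction and an adjusted p under 0.05 in all 25 alternatives computed for it, which included leaving out each of the 20 drug-treated mice. All of them rest on the same listing, which the transcript met with valsartan only through the Ang II hearts. MERGE.13254.5, ENSMUST00000106789 and MERGE.9770.8 differed from the other drug groups by 0.93 (SE 0.47), 0.57 (SE 0.26) and -0.88 (SE 0.38) on that scale, each with a limma adjusted p of 0.998.

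The number of lower and higher transcripts depended on abundance and on how libraries were scaled. Among the 354 transcripts at a mean of 100 FPKM or more, 60 were lower and 6 higher with valsartan at an unadjusted p under 0.05. Among the 1353 at 20 to 100 FPKM, 91 were lower and 21 higher, and among the 12134 under 5 FPKM 325 were lower and 365 higher. Leaving out a single mouse gave 40 to 69 lower and 5 to 10 higher in the most abundant class. At 20 to 100 FPKM the 91 lower became 47 without valsartan mouse 5121, 56 without Ang II mouse 5128, 60 without valsartan mouse 5148 and 146 without valsartan mouse 5124. The median log2 difference was -0.11 in the most abundant class and 0.01 in the least abundant. After quantile normalization the most abundant class had 28 lower and 13 higher, and all classes together had 586 lower and 587 higher, in place of 643 and 491.

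An abundant transcript stood at 1 of 2 widely separate levels in each heart. ENSMUST00000082421, also singled out after its values were seen, ranked 3 by mean level among all transcripts of the 10 hearts. With valsartan it was at 56189, 61622, 60572, 50139 and 61117 FPKM, which was 8.55% to 9.92% of the summed FPKM. In Ang II mice 5130 and 5161 it was at 52216 and 50819 FPKM, but in mice 5143, 5128 and 5156 it was at 1.04, 1.36 and 0.962 FPKM. No heart of the series lay between, as 11 of the 30 were at 0.786 to 2.83 FPKM and 19 at 49687 to 66820 FPKM. The low hearts were 1 Control, 3 AngII, 3 AngII+ETH, 1 AngII+BAI and 3 AngII+GAS hearts and no AngII+VAL heart. Its difference with valsartan had an SE of 3.22 on the log2(FPKM + 1) scale and a limma adjusted p of 0.742. Reads were not examined here, so the values near 1 FPKM were not read as levels of the transcript in those hearts, nor the count of low hearts per group as a response to treatment.

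The sum of all other transcripts was 619496, 620424 and 641787 FPKM in the 3 low Ang II hearts and 573573 and 594373 FPKM in the others. In the remaining groups with both levels, hearts at the 2 levels overlapped in this sum. For example, the low Control heart was at 585449 FPKM and the high ones at 547188 to 595857 FPKM, and the low gastrodin hearts were at 578475 to 641706 FPKM and the high ones at 584117 and 590653 FPKM. By group, the sum of the others was 609931 ± 26365 with Ang II and 568413 ± 22230 with valsartan (SD, n = 5 each), a log2 ratio of -0.10. For these 354 transcripts, the median log2 difference from the mean of the 10 hearts was 0.08, 0.13 and 0.06 in the Ang II hearts where the transcript was near 1 and 0.02 and 0.0045 in the Ang II hearts where it was high. It was 0.02, -0.11, -0.12, 0.04 and -0.05 in the valsartan hearts. With each library scaled to the sum of its other transcripts, the most abundant class had 6 lower and 16 higher transcripts, and all classes together had 289 lower and 834 higher at an unadjusted p under 0.05. This scaling multiplies each library by 1 constant, which on log2(FPKM + 1) moves low transcripts less than high ones. The median log2 difference went from 0.01 to 0.07 in the least abundant class. In the most abundant class it went from -0.11 to -0.0054. The balance of higher and lower calls moves with these medians. No direction is therefore drawn from that balance. The 3 higher and 1 lower transcripts at the adjusted threshold passed it again after scaling to the other transcripts, with limma adjusted p from 0.00818 to 0.0394.

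**Figure D4:**
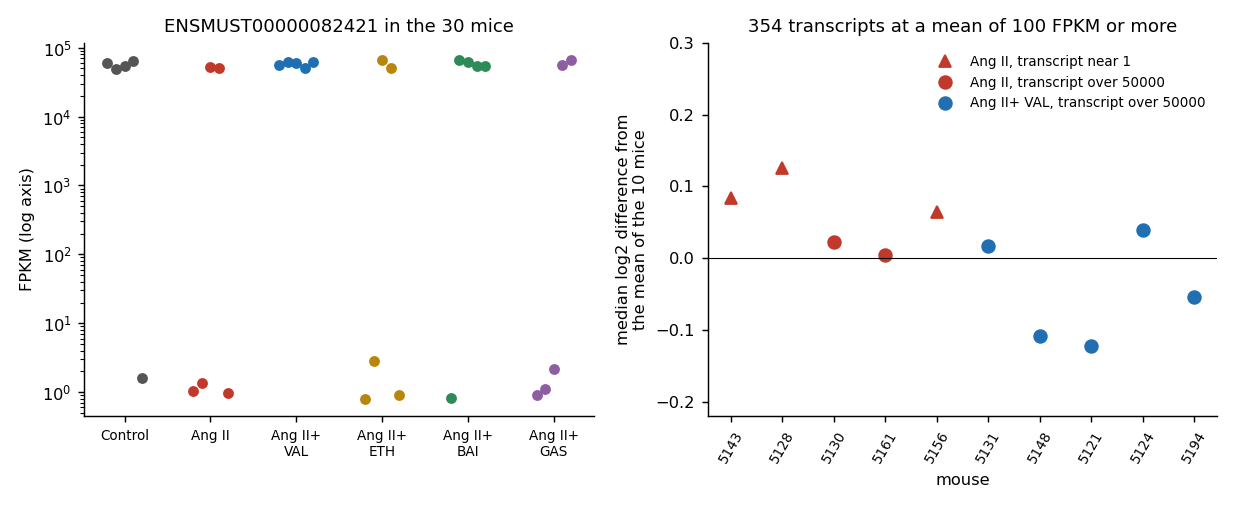
Left, FPKM of ENSMUST00000082421 on a log axis in the 30 hearts by group. Right, for each of the 10 hearts, the median over 354 abundant transcripts of the log2 difference from the mean of the hearts, with triangles for the 3 Ang II hearts where ENSMUST00000082421 is near 1 FPKM. All 5 valsartan hearts are at 50139 FPKM or more on the left, and the 3 triangles on the right are the 3 highest hearts.

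**Figure D5:**
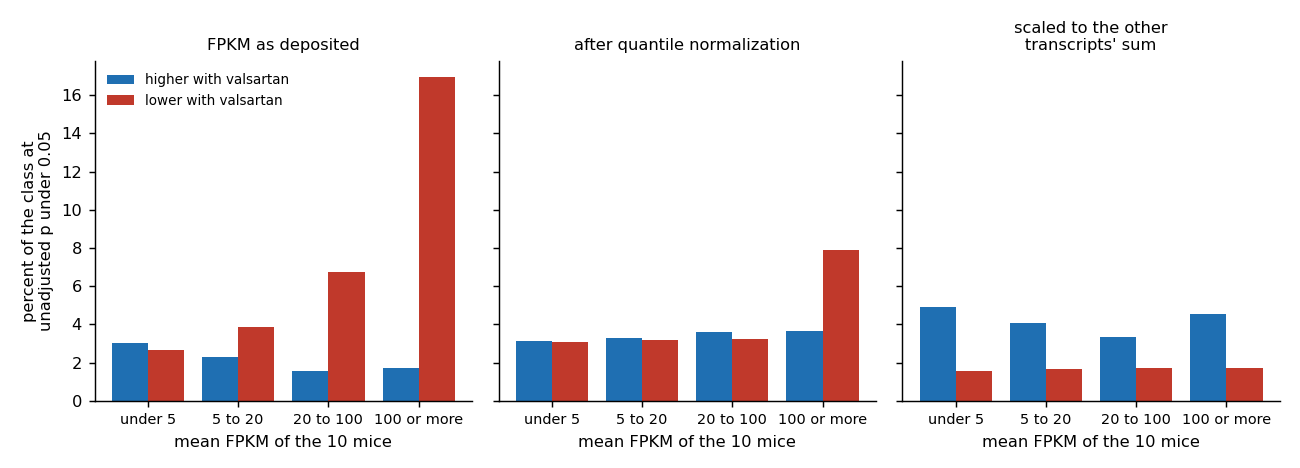
Percent of transcripts at an unadjusted p under 0.05 that were higher (blue) or lower (red) with valsartan, in 4 classes of mean FPKM, for the values as deposited (left), after quantile normalization (middle) and with each library scaled to the sum of its transcripts other than ENSMUST00000082421 (right). In the class at 100 FPKM or more, 60 were lower and 6 higher on the left, 28 and 13 in the middle, and 6 and 16 on the right.

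Other transcripts were also near 0 in some hearts of a group and high in others. Among the tested transcripts, 333 (1.83%) were under 0.1 FPKM in at least 1 Ang II heart and at 10 FPKM or more in another, and 325 (1.79%) were so among the valsartan hearts. In all, 486 transcripts did so in either group and 172 in both, and 232 of the 486 were merged models. Of the 251 transcripts past 2-fold and an unadjusted p under 0.05, 120 (47.8%) were listed at 0 in at least 1 heart, beside 2573 (14.1%) of those tested. The mean correlation of log2 values over all pairs of hearts, across transcripts, was 0.62 for merged models, 0.77 for merged models summed by number and 0.87 for Ensembl transcripts.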

How the data were processed

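Total RNA of cardiac tissue was depleted of ribosomal RNA before library preparation, per the labels. The authors deposited 1 value per transcript and mouse, whose unit is not stated. The deposited values were read as FPKM, as they were fractional and their sums differed between libraries. The submitters' processing notes name mm10 and limma, while no source used here names the aligner, quantifier or annotation. The valsartan tables hold transcripts whose mean was at least 0.5 in the valsartan or in the Ang II group.

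Transcripts in all 10 files at 1 FPKM or more in at least 5 hearts were fitted as log2(FPKM + 1), which understates changes of low transcripts, with limma 3.58.1 in R 4.3.3 (mean-variance trend, two-sided, Benjamini-Hochberg). The labels do not say that hearts were pooled or paired. The fit was tested on simulated data. Descriptive values and plots were made in Python 3.11.15 with pandas 2.3.3 and matplotlib 3.10.9. Depth is unknown, so no counting interval is given.

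Identifiers could not be paired with genes (0 matched), so tests by gene, pathway and cell marker lists and sequences are not analysed here. By rule, the 2 higher and 2 lower transcripts with the smallest p are named, preferring adjusted p under 0.05; the second lower is described without its identifier, as ENSMUST00000032570 is named instead. The comparison and its lists were chosen with earlier results of these data known. Alternatives changed normalization, trend, filter, pseudocount (0.1), fold (1.5), libraries and models; summing of models, the scaling to other transcripts, the removal of mice 5156 and 5131 and the contrast with other drugs were chosen after seeing the data.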

Additional observations from a re-analysis of the deposited data

Results flagged for a closer look

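In 24 checks for a heart far from the others of its group, over library measures and the 6 described transcripts, 3 hearts stood apart, where chance gives about 1 in 20. Ang II mouse 5156 held 0.00327 FPKM of MERGE.13254.5 where the other 4 were listed at 0, a setting in which any value above 0 stands apart. Valsartan mouse 5121 held 0.866 FPKM of MERGE.9770.8 and valsartan mouse 5148 held 1.36 FPKM of ENSMUST00000032570, each the highest of its group, and both remained below all Ang II hearts. For ENSMUST00000032570, the effect of valsartan on Ang II hearts minus the mean effect of the other 3 drugs was -1.74 on the log2(FPKM + 1) scale (SE 0.22, limma adjusted p = 0.00062), lower in 5 of 5 valsartan hearts than in 14 of the 15 hearts of the other drugs.

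Transcripts in the valsartan tables but not in the Ang II tables entered no test. By the listing rule their means were under 0.5 FPKM in the Ang II hearts and at least 0.5 FPKM with valsartan. This loss is one-sided, as it leaves out only transcripts with a higher mean with valsartan. There were 1582 of them, 254 at a mean of at least 1 FPKM over the 5 valsartan hearts, and 1 was at 1 FPKM or more in all 5. The one with the highest mean, 138 FPKM, was at 364 and 327 FPKM in mice 5148 and 5194 and at 0.571, 0.115 and 0.111 FPKM in mice 5131, 5121 and 5124. The Ang II tables held 2323 transcripts outside the valsartan tables, and none of these reached a mean of 0.5 FPKM in the Ang II hearts.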

How the results depend on the processing

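The counts at an adjusted p under 0.05, 3 higher and 1 lower, changed with single hearts and with some settings. Leaving out 1 mouse gave 0 to 5 higher (0 without 5128, 1 without 5194, 5 without 5130) and 0 to 4 lower (0 without 5143, 5128 or 5161, 2 without 5130 or 5121, 4 without 5124). Higher transcripts numbered 0 with all 6 groups in one fit and 1 without mice 5156 and 5131. Lower transcripts numbered 2 after quantile normalization and 0 with a pseudocount of 0.1, without mice 5156 and 5131 and with merged models summed. A mean of at least 5 FPKM left 6185 transcripts, of which 0 were higher and 0 lower at the adjusted threshold. At an unadjusted p under 0.05, 119 of these were higher and 344 lower. The 4 called transcripts had means under 5 FPKM, so that filter removed them before the test. Among Ensembl transcripts alone 0 were lower, as the lower call was a merged model and was not among them. MERGE.9770.8 reversed to 0.30 when its models were summed. MERGE.13254.5 lost its adjusted call without mouse 5128 (adjusted p = 0.0655).

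At 2-fold and an unadjusted p under 0.05, 128 were higher (0.703%) and 123 lower (0.676%) of 18196 tested. At a mean of at least 5 FPKM these became 38 and 45 of 6185 tested. They were 227 and 187 with a pseudocount of 0.1, 286 and 256 at 1.5-fold, and 244 and 198 with the fold taken from group means. Without a filter 188 of 29529 were lower. The filters change the number tested, so a changed count under them is not by itself a changed share. Leaving out a mouse gave 112 to 150 higher and 127 to 162 lower. At an unadjusted p alone, 824 of 29529 were higher without a filter, beside 491 of 18196 with it. After scaling to the other transcripts 834 were higher and 289 lower, and without a mouse 378 to 557 were higher and 511 to 871 lower. Against the other drugs, 2 were lower after quantile normalization and 2 with a pseudocount of 0.1, and leaving out a mouse gave 1 to 3 lower and 0 to 1 higher. At a mean of at least 5 FPKM 0 of 6136 were lower, but that filter removed ENSMUST00000032570 before the test.

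The tests by gene were not run. No paired analysis was possible because nothing in the labels pairs valsartan mice with Ang II mice. The unknown depth limits what can be said of transcripts under about 1 FPKM.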
